A study of Mus musculus with 12 samples.

Results

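The genes described here encode the proteins of the cytosolic ribosome. They were taken by symbol, as every gene whose name in the deposited comparison tables is Rps or Rpl with a number and at most 1 further letter and digit, together with Rplp0, Rplp1, Rplp2 and Rpsa. This gave 83 genes of the 38887 in each library table, 32 named for the small (40S) subunit and 51 for the large (60S) subunit. All 83 were found in the library tables, and 81 passed the filter on low counts and entered the fit of 12846 genes. The rule used names alone, although the family was picked with earlier results of these data known. Fau, Rack1 and Rpl36al, which also supply ribosomal proteins, carry other names and are no members.

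The libraries came from bone marrow-derived macrophages (BMMs) grown from femur and tibia marrow for 6 days with 50 ng/ml M-CSF. IGF2BP2 KO mice came from a cross of B6.Cg-Igf2bp2tm1.1Thor/J, in which loxP sites surround exons 4 and 5 of Igf2bp2, with 29P2-Lyz2tm1(cre)Ifo/J, in which Cre is driven from the myeloid gene Lyz2. The WT littermates were not floxed and could carry Cre or lack it, so Cre is not matched between genotypes. Mice were 3 to 4 months old. Cells were left untreated (M0) or received 20 ng/ml IL-4 for 8 h (M2), which gave WT M0, KO M0, WT M2 and KO M2 with 3 libraries each.

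A cytosolic ribosome is built from ribosomal RNA and a nearly fixed set of proteins, most of them needed in equal number. Their genes are scattered over the genome but are usually transcribed together, and most of their mRNAs begin with a 5′ terminal oligopyrimidine (TOP) tract, a C followed by a run of C and T through which LARP1 and the kinase mTORC1 set how much of the mRNA is translated. IGF2BP2 is an RNA-binding protein that reads N6-methyladenosine and acts on the stability and translation of its target mRNAs. The RNA levels below do not measure translation. In bulk libraries, fewer cells of a type and less RNA per cell cannot be told apart.

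The starts of several members are shown because the members moved largely together, and because the tract at the start is the sequence by which this family is usually recognised. RefSeq start sites on GRCm38.p6 were available for 63 of the 83 genes, in 75 windows that run from 250 bases before the start to 50 after it. The 30 bases printed here run 5′ to 3′ on the gene's own strand, the 11th is the annotated first base of the transcript, and capitals mark the longest unbroken run of C and T. The first 4 genes are among those that rose most with IL-4, and the other 4 passed the test in neither genotype with all libraries. Those other 4 are the uncalled members with an annotated start of C followed by 4 pyrimidines. Uncalled members with another start, such as Rpl19, Rpl31 and Rpsa, are not printed, so the printed genes do not show how starts and calls go together. Rps27l and Rpl10a each have a further annotated start that is not printed.
Rps27l, chr9:66946076-66946105, plus strand: CCTCCCCgccgcctctatcccggaagttgc
Rps18, chr17:33955646-33955675, minus strand: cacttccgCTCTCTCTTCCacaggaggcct
Rpl13a, chr7:45128726-45128755, minus strand: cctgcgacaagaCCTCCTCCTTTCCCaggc
Rpl10a, chr17:28328461-28328490, plus strand: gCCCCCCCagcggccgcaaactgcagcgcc
Rps10, chr17:27635225-27635254, minus strand: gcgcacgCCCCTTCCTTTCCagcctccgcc
Rpl35, chr2:39005112-39005141, minus strand: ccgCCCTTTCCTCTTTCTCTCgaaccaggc
Rps15a, chr7:118116128-118116157, minus strand: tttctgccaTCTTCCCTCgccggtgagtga
Rpl38, chr11:114668570-114668599, plus strand: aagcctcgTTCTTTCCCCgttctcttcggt

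Rps18 starts inside a run of 11 pyrimidines, Rps10 inside 13 and Rpl35 inside 18, while the run of 14 in Rpl13a begins at the third base of the annotated transcript. A first base C followed by 4 bases that are each C or T was found in 13 of the 75 windows (17.3%) and in 2.51% of all 32851 promoter windows. The letters CCGGAAG, searched on both strands of the 300-base window, were in 36% of the members' windows and in 8.86% of all windows, and they stand in the Rps27l window printed above on its own strand. TATAAA, on either strand, was in 9.33% of the members' windows and in 13.6% of all. An annotated start may lie a few bases from the one used in these cells.

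Ribosomal protein transcripts were among the most abundant mRNAs of these macrophages. On the TPM scale, which divides by transcript length and so allows genes to be compared, 78 of the 83 members had a mean between 400 and 3100 TPM in WT M0, 61 were above 1000 TPM, and 41 of the 100 most abundant genes were members. Rplp1, an acidic protein of the ribosomal stalk, was highest with 3017 ± 107 TPM (SD, n = 3) in WT M0. It was followed by Rpl41, the smallest ribosomal protein, with 2798 ± 162 TPM. Rps12 had 2546 ± 26.3 TPM, Rpl10 had 2158 ± 78.0 TPM and Rps14 had 2109 ± 75.3 TPM. Rpl10 and Rps14, neighbours in this order, overlapped between libraries and did not differ beyond their spread. The order hardly changed between groups, with a Spearman rho over the 83 genes of 0.987 to 0.996 between the mean TPM of any pair of groups. This is a description across genes that share transcript lengths, and genes are not independent replicates.

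**Figure D1:**
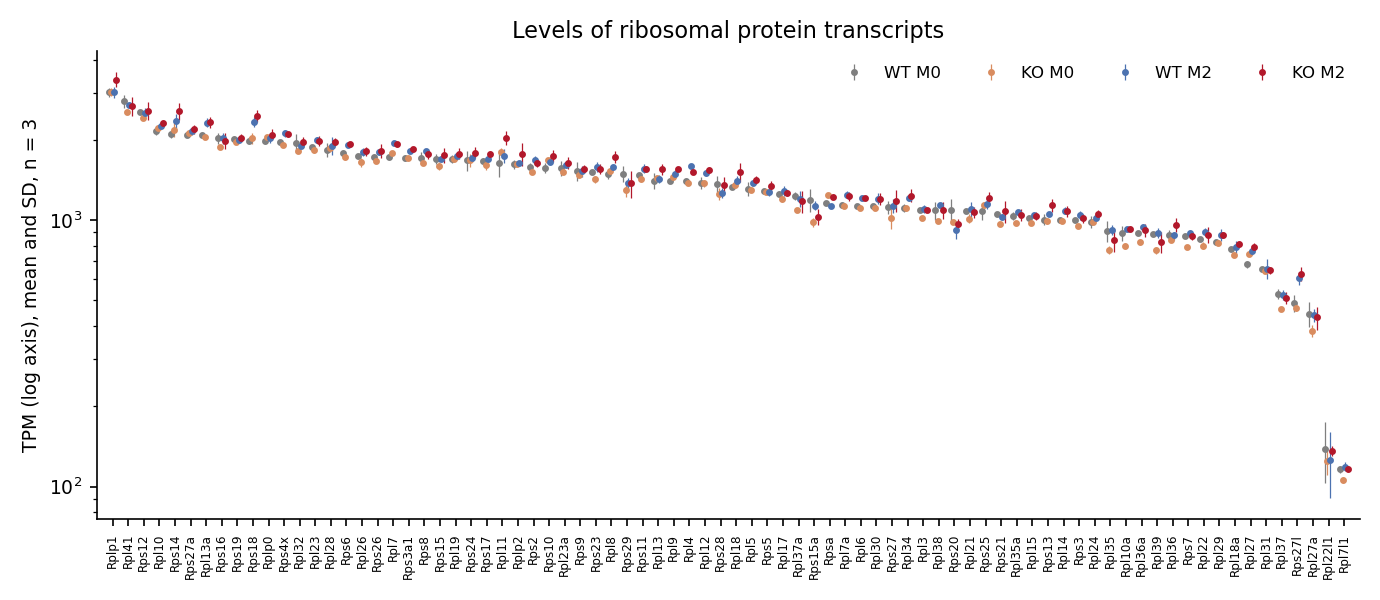
Mean TPM (log axis) of the 80 ribosomal protein genes with a mean above 10 TPM, ordered by WT M0, with SD bars over the 3 libraries of each group. The order is led by Rplp1, Rpl41 and Rps12, the 4 groups lie close to each other for every gene, and Rpl22l1 and Rpl7l1 form the low end.

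The low end of the order was made up of genes that resemble a core ribosomal protein gene. Rpl10l, a testis-type relative of Rpl10, had 0 reads in all 12 libraries. Rpl3l, a muscle-type relative of Rpl3, had at most 3 expected counts in any library. Rpl39l, a relative of Rpl39, had 0 to 14 expected counts and a mean of 0.49 ± 0.51 TPM in WT M0 and 1.06 ± 0.66 TPM in KO M0. It passed the filter, but its genotype and IL-4 changes had standard errors too wide for any call. Reads of such near copies could be split between genes by the authors' quantification, so low values of a copy are uncertain.

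Rpl22l1, Rpl7l1 and Rps27l were clearly present. Rpl22l1, a paralog of Rpl22, stood at 108, 130 and 177 TPM in the WT M0 libraries and at 94.3, 119 and 163 TPM with IL-4. The KO libraries stood at 108, 132 and 135 TPM untreated and at 130, 137 and 141 TPM with IL-4. The 4 groups overlapped, and replicate 3 was the highest in each. Rpl7l1, which acts in assembly of the 60S subunit, had means of 106 to 119 TPM. Rps27l, a p53-regulated relative of Rps27, had 488 ± 34.6 TPM in WT M0 and 628 ± 38.0 TPM in KO M2, and was the member with the largest rise with IL-4. Rpl27a, a core member, was the remaining low one with 444 ± 47.5 TPM in WT M0.

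As a share of all TPM, the members together held 10.7, 10.9 and 11.2% in the WT M0 libraries and 10.6, 10.7 and 10.8% in KO M0. They held 11.6, 11.4 and 11.2% in WT M2 and 12.1, 11.1 and 11.6% in KO M2. The KO M2 range lay above the KO M0 range, whereas the WT M2 and WT M0 ranges overlapped. With 3 libraries against 3, an exact permutation test cannot go below p = 0.1, and none was used.

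A pair of libraries stood apart from the others of their groups, and the main counts of calls, the medians, the length relation and several named genes are given with and without them. WT M0 replicate 3 was the highest of its group for 76 of the 81 members (93.8%), while it was the highest for 40.7% of all genes fitted. KO M2 replicate 1 was the highest of its group for 77 members (95.1%), against 41.0% of all genes. The median member lay 0.09 above its group mean on the log2 scale in the first of them and 0.11 above in the other. At the other end, WT M0 replicate 1 was the lowest of its group for 70 members and KO M2 replicate 2 for 72. There the median member lay at -0.07 and -0.08 from its group mean, and this low pair was not left out together. The members thus varied as a block from library to library, by an amount similar to the changes tested below, and they are not 81 independent measurements.

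Total expected counts ran from 20011792 to 39632770 per library, with 24942666 in WT M0 replicate 3 and 27347077 in KO M2 replicate 1, neither at an end of that range. The gap between the transcript length and the effective length that the authors' quantification used was 84.0 to 84.95 nt in WT replicates 1 and 2, 81.7 nt in WT M0 replicate 3, 79.8 nt in WT M2 replicate 3 and 79.0 to 79.9 nt in all KO libraries. It therefore set WT replicates 1 and 2 apart from the other libraries, WT M2 replicate 3 lay within the KO range, and its part in the genotype comparisons was not tested. The targeted gene, Igf2bp2, stood at 118, 99.7 and 76.5 CPM in the WT M0 libraries, and in KO M0 at 95.9, 84.9 and 91.6 CPM, within that range. With IL-4 the WT libraries had 221, 233 and 178 CPM, all above the 146, 129 and 129 CPM of the KO libraries. These gene-level counts include exons outside the deleted pair. Lyz2, the gene that carries Cre in the KO line, had 4185 to 10544 CPM in the WT libraries and 11.04 to 33.2 CPM in the KO libraries, so it separated the genotypes in all 12.

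**Figure D2:**
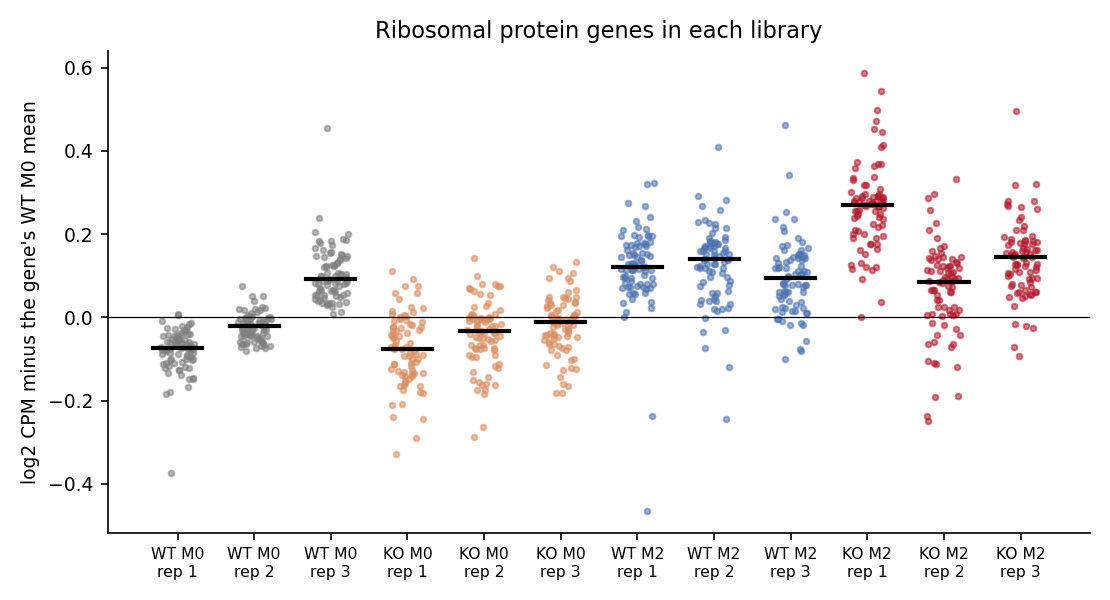
Each point is 1 ribosomal protein gene in 1 library, as log2 CPM minus that gene's mean in WT M0, and each black line is the median over the genes. 80 genes are drawn, without Rpl39l. WT M0 replicate 3 and KO M2 replicate 1 stand above the other libraries of their groups.

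Most ribosomal protein genes had higher fitted values with IL-4 in BMMs of both genotypes, by small amounts. With all libraries the share called higher exceeded that of all genes in KO and was near it in WT. Here and below a call is an adjusted p below 0.05 (edgeR where no other tool is named), and CPM scales each count to library size after TMM correction. The number called was 23 in WT and 60 in KO with all libraries. It was 57 in WT and 53 in KO with both libraries that stood apart left out, an alternative added after the values were seen. They were picked because the members were high in them, so leaving them out was bound to raise the WT response and lower the KO response. The test of the difference between the genotypes' responses called 0 members in either fit. In WT with all libraries, 23 of 81 members were called higher and 0 lower with edgeR. Over all genes fitted, 24.9% were called higher in that comparison, so the 28.4% of the members was close to the background in number. The direction was not mixed as it was over all genes, where 25.1% were called lower. The median member rose by 0.12 on the log2 scale, against a median of -0.01 over all genes, and 76 of 81 fitted values were above 0. In KO, 60 of 81 members (74.1%) were called higher and 0 lower, where 26.8% of all genes were called higher and 26% lower. There the median was 0.20 against 0.01 over all genes, and 80 of 81 values were above 0. The KO count was 35 with total counts only (21.2% of all genes higher) and 24 with limma and no filter (10.7% of all genes higher).

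With an unadjusted p below 0.05 there were 30 members in WT (55.2% of all genes) and 72 in KO (57.7% of all genes). Scaling by total counts alone moved the median of all genes in the WT comparison to -0.10. The median member was then 0.02, still above it, with 49 values above 0 and 32 below. In that fit 5 members were called higher (6.17%, against 17.5% of all genes) and 1, Rps20, lower (33.3% of all genes). Without WT M0 replicate 3 the WT count was 44 (54.3% higher, against 23.8% of all genes). Without WT M0 replicate 1 it was 9, 8 higher and 1 lower (9.88% higher, against 23.6% of all genes). It was 12 without WT M0 replicate 2 (14.8% against 21.4%) and 11 without WT M2 replicate 1 (13.6% against 21.8%). Without WT M2 replicate 2 it was 9 (11.1% against 21.2%), and without WT M2 replicate 3 it was 22 (27.2% against 23.1%). The KO count was 38 without KO M2 replicate 1 (46.9%, against 24.5% of all genes) and stayed within 1.5 times of 60 without any other.

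Both subunits held called genes. In WT, 9 of 32 small-subunit genes and 14 of 49 large-subunit genes that were fitted were called higher (28.1% and 28.6%, near the 24.9% of all genes), with medians of 0.11 and 0.12. In KO the counts were 21 of 32 and 39 of 49 (65.6% and 79.6%, against 26.8% of all genes), with a median of 0.20 for each subunit. All 3 M2 libraries lay above all 3 M0 libraries for 31 members in WT (27.9% of all genes) and for 70 members in KO (32.1% of all genes). The opposite order was found for 0 members in both genotypes, against 27.3% of all genes in WT and 31.3% in KO. With both libraries that stood apart left out, 23 of 32 small-subunit and 34 of 49 large-subunit genes were called higher in WT (71.9% and 69.4%, against 25.8% of all genes), and 18 of 32 and 35 of 49 in KO (56.2% and 71.4%, against 26.6% of all genes). The M2 libraries then lay above the M0 libraries for 71 members in WT (32.7% of all genes) and 70 in KO (37.2% of all genes).

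**Figure D3:**
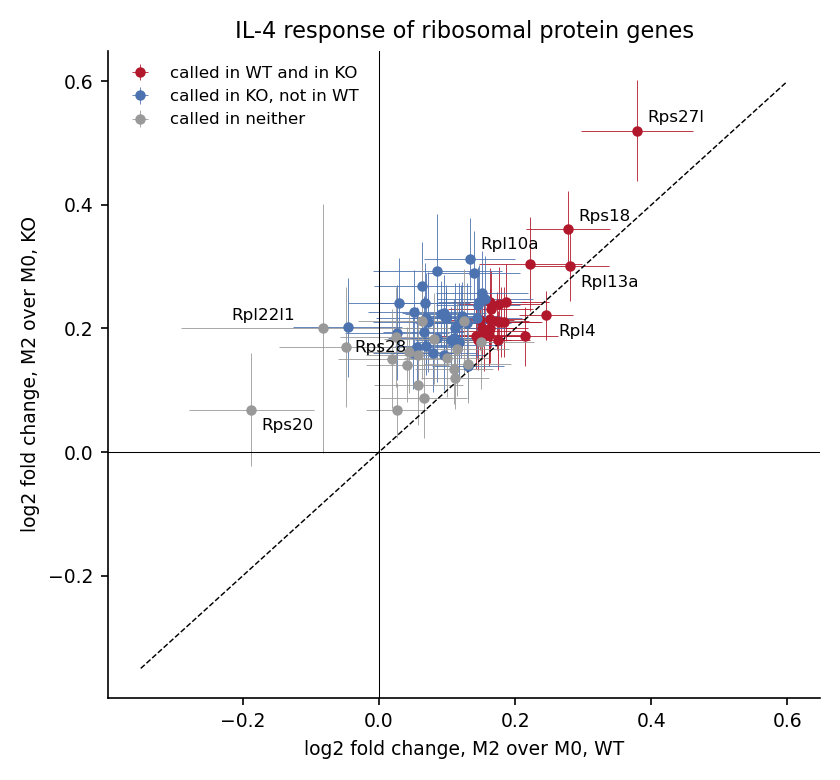
Fitted log2 fold change of M2 over M0 in WT (x axis) and KO (y axis) for 80 ribosomal protein genes, without Rpl39l, with bars of 1 standard error on both axes and a dashed line of equal change. Most points lie above 0 on both axes and above the line, with Rps27l and Rps18 farthest out and Rps20 to the left of 0.

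Rps27l rose most. It had 100.3, 114 and 125 CPM in WT M0 and 136, 150 and 155 CPM in WT M2, so that the groups did not overlap. In KO it had 110.2, 107 and 110.2 CPM in M0 and 169, 142 and 159 CPM in M2. Its log2 fold change was 0.38 ± 0.08 (SE, edgeR adjusted p = 0.00191) in WT and 0.52 ± 0.08 (edgeR adjusted p = 0.000145) in KO. Rps27l was called in both genotypes in each fit that left out 1 library.

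Rps18, a small-subunit protein near the head of the 40S subunit, had 491, 504 and 519 CPM in WT M0 and 631, 618 and 587 CPM in WT M2. In KO it had 475, 531 and 518 CPM in M0 and 713, 615 and 629 CPM in M2. Both pairs of groups were separate, with log2 fold changes of 0.28 ± 0.06 (edgeR adjusted p = 0.00235) in WT and 0.36 ± 0.06 (edgeR adjusted p = 0.000303) in KO.

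Rpl13a, a large-subunit protein that also has a described role outside the ribosome in interferon-treated myeloid cells, had 598, 634 and 646 CPM in WT M0 and 781, 753 and 746 CPM in WT M2. In KO it had 626, 657 and 638 CPM in M0 and 867, 747 and 753 CPM in M2. It rose by a similar amount in both genotypes. The log2 fold change was 0.28 ± 0.06 (edgeR adjusted p = 0.00137) in WT and 0.30 ± 0.06 (edgeR adjusted p = 0.000726) in KO.

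Rpl4, an early-assembling large-subunit protein, had 1037, 1027 and 1066 CPM in WT M0 and 1234, 1248 and 1228 CPM in WT M2. The groups did not overlap, and its adjusted p was the smallest among the members in WT (edgeR adjusted p = 0.000212, log2 fold change 0.25 ± 0.04). In KO it had 1035, 1019 and 1030.0 CPM in M0 and 1253, 1162 and 1181 CPM in M2, also separate, and rose by 0.22 ± 0.04 (edgeR adjusted p = 0.000417).

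Rps14, a small-subunit protein, had 503, 513 and 521 CPM in WT M0 and 617, 622 and 554 CPM in WT M2. Its log2 fold change was 0.22 ± 0.08 in WT (edgeR adjusted p = 0.0276) and 0.30 ± 0.08 in KO (edgeR adjusted p = 0.00434). With 1 library left out, the edgeR adjusted p in WT ran from 0.0139 to 0.0976, and it did not pass without WT M0 replicate 1 or 2 or without WT M2 replicate 1 or 2. The KO call was kept in all 6.

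Rpl10a, the protein of the L1 stalk of the large subunit, had the largest rise among the members called in KO and not in WT with all libraries in the fit. It had 343, 380.2 and 421 CPM in WT M0, with replicate 3 reaching the WT M2 values of 416, 413 and 427 CPM. In KO it had 337, 356 and 349 CPM in M0 and 459, 414 and 420.4 CPM in M2. The log2 fold change was 0.13 ± 0.07 in WT (edgeR adjusted p = 0.115) and 0.31 ± 0.07 in KO (edgeR adjusted p = 0.00148). Without WT M0 replicate 3 the WT value was 0.21 and Rpl10a was called there too (edgeR adjusted p = 0.0102). The test of the difference gave 0.18 ± 0.09 with an edgeR adjusted p = 0.343, so the responses of the genotypes were not shown to differ.

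**Figure D4:**
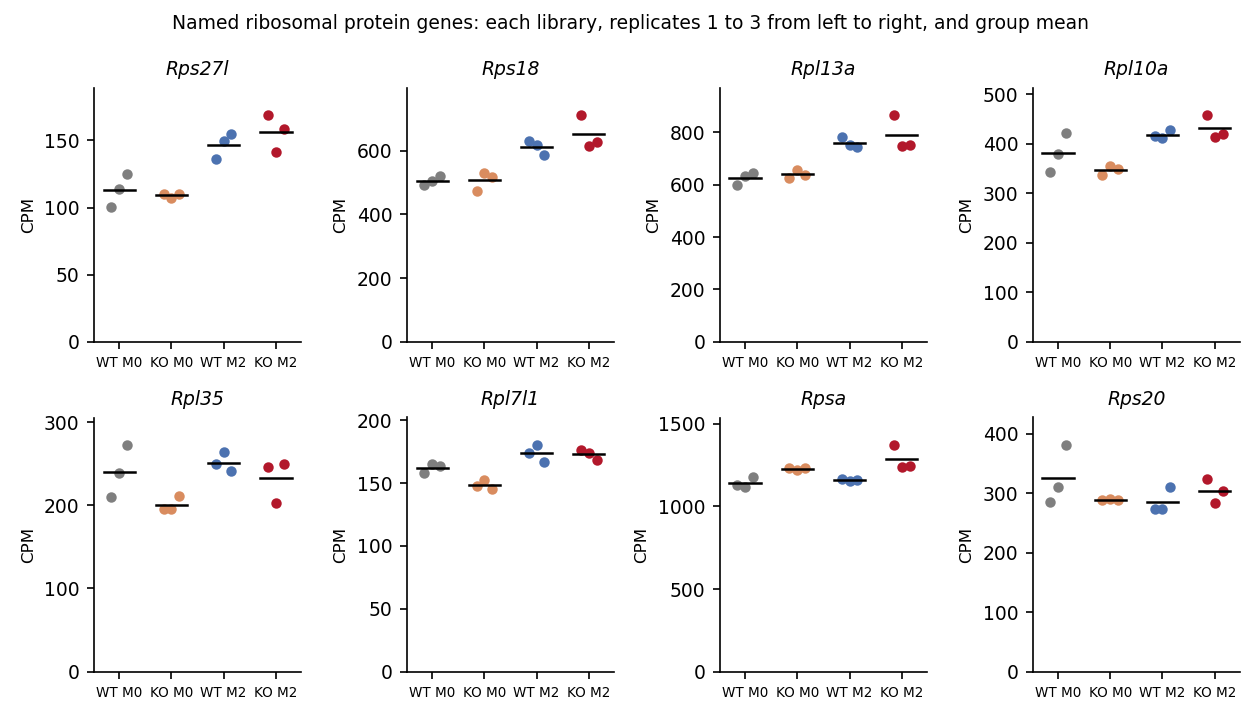
CPM (y axes from 0) of 8 ribosomal protein genes in each of the 12 libraries, with replicates 1 to 3 drawn from left to right in each group and a line at the group mean. Rps27l, Rps18 and Rpl13a are separated by IL-4 in both genotypes, Rpl7l1 and Rpsa separate KO M0 from WT M0, and Rps20 is highest in WT M0 replicate 3.

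The P-stalk proteins, which recruit the elongation factors, were called with IL-4 only in part. Rplp0, which anchors the stalk, had 1196, 1157 and 1216 CPM in WT M0 and 1336, 1260.5 and 1257 CPM in WT M2, and was called in neither genotype (edgeR adjusted p = 0.0844 in WT and 0.0612 in KO). Rplp1 was called in KO (log2 fold change 0.24 ± 0.07, edgeR adjusted p = 0.00779) and Rplp2 was called there too (0.21 ± 0.08, edgeR adjusted p = 0.0426). With 1 library left out, the Rplp2 call was kept only without KO M2 replicate 2, and the edgeR adjusted p was 0.0752 to 0.195 without any other KO library. In WT both had values of 0.07 that did not pass. With both libraries that stood apart left out, Rplp0 (edgeR adjusted p = 0.0204) and Rplp2 (edgeR adjusted p = 0.0309) were called in WT, and Rplp2 was not called in KO (edgeR adjusted p = 0.0843). The differences between the genotypes' responses for the 3 genes had edgeR adjusted p of 0.967, 0.359 and 0.571.

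Of the remaining copy genes, Rpl7l1 rose by 0.22 ± 0.04 in KO (edgeR adjusted p = 0.000915), with 0.10 ± 0.04 in WT that did not pass (edgeR adjusted p = 0.0798). Its partner by name, Rpl7, rose by 0.21 ± 0.05 in WT (edgeR adjusted p = 0.00238) and 0.19 ± 0.05 in KO. Rpl22 rose in both, by 0.16 in WT (edgeR adjusted p = 0.0430) and by 0.23 in KO, and Rpl22l1 was called in neither. The WT call of Rpl22 was kept only without WT M2 replicate 3, with an edgeR adjusted p of 0.0504 to 0.114 without any other WT library. Rps27, the partner of Rps27l, had 0.09 ± 0.09 in WT (edgeR adjusted p = 0.483) and rose by 0.29 ± 0.09 in KO (edgeR adjusted p = 0.0186). The KO call of Rps27 was lost without KO M0 replicate 1, KO M2 replicate 1 or KO M2 replicate 3 (edgeR adjusted p = 0.0939, 0.0543 and 0.0812). Rpl3, Rpl10 and Rps4x were called in KO, and only Rps4x of these was also called in WT. The Rpl10 call was kept only without KO M2 replicate 2, with an edgeR adjusted p of 0.0728 to 0.148 without any other KO library. With both libraries that stood apart left out, Rpl10 was called in WT (edgeR adjusted p = 0.00174) and not in KO (edgeR adjusted p = 0.0549), and Rpl3 was called in both.

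A few members had lower values with IL-4 in WT, and none of them was called in the edgeR fit of all libraries with TMM scaling and no replicate block. Rps20, a small-subunit protein picked here after its values were seen, had 286, 310.5 and 382 CPM in WT M0 and 274.5, 273 and 311 CPM in WT M2, with a log2 fold change of -0.19 ± 0.09 (edgeR adjusted p = 0.111). WT M0 replicate 3 was its highest library, and it was called lower with the replicate number as a block, which pairs M0 and M2 libraries, with total counts only, in the 3 limma settings and without WT M0 replicate 1. Rps28, Rps29 and Rpl22l1 had values between -0.08 and -0.05, and the barely detected Rpl39l had -0.47.

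All 23 members called in WT were also called in KO, where they made up 38.3% of the 60 calls. A further 37 were called in KO and not in WT, and 21 in neither. These 21 included Rplp0, Rpsa, Rps20, Rpl19, Rpl31, Rpl35, Rpl38, Rpl41 and Rps19. The unequal counts do not test a difference between genotypes. The test of the difference called 0 members, where 3.24% of all genes were called, and 1 member, Rps28, had an unadjusted p below 0.05, against 17.8% of all genes. DESeq2 also called 0. The median difference, KO minus WT, was 0.09 against 0.01 over all genes, 79 of 81 values were above 0, and the median standard error of a single difference was 0.09.

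Rps28, a short small-subunit protein, had 206, 240 and 239 CPM in WT M0 and 228, 223 and 212 CPM in WT M2. In KO it had 197, 217 and 222 CPM in M0 and 270.3, 221 and 240.3 CPM in M2. The WT groups overlapped fully, and the KO groups overlapped through M2 replicate 2. The difference was 0.25 ± 0.11 (edgeR adjusted p = 0.276), and 0.13 ± 0.10 with both libraries that stood apart left out.

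With all libraries, the size of the difference went with transcript length. Over 80 members, without Rpl39l, Pearson's r between the difference of the IL-4 responses and the log2 effective length was -0.47 and Spearman's rho was -0.50, so that shorter members had the more positive values. For the IL-4 responses themselves r was 0.19 in WT and -0.24 in KO. With both libraries that stood apart left out, r for the difference was -0.16 and rho was -0.22. These are descriptions across genes measured in the same 12 libraries. The fold changes were fitted on counts without a length correction, and the part of length in the difference was not tested.

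Leaving out either library that stood apart lowered the median difference to 0.03. The IL-4 median was 0.17 in WT without WT M0 replicate 3 and 0.15 in KO without KO M2 replicate 1. With both left out, 57 members were called higher in WT (25.8% of all genes) and 53 in KO (26.6% of all genes), with medians of 0.17 and 0.14. The median difference then became -0.03, with 27 values above 0 and 54 below. It was 0.12 without WT M0 replicate 1, where 9 members were called in WT. Without KO M2 replicate 2 it was 0.13, and 72 members were called in KO. Since the libraries were picked by the members' own values, the shift to -0.03 does not test whether the genotypes' responses differ. Compared by replicate number, the median member rose by 0.20 and 0.16 in WT replicates 1 and 2 but changed by -0.01 in WT replicate 3, where 38 of 80 members were higher. In KO the 3 medians were 0.33, 0.10 and 0.16.

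The call counts by start are set against 24.9% of all genes called higher in WT and 26.8% in KO. Of the 13 genes with a C followed by 4 pyrimidines at an annotated start, 3 were called with IL-4 in WT and 9 in KO, with medians of 0.11 and 0.21. Of the other 48 fitted genes with a known start, 15 were called in WT and 34 in KO, with medians of 0.12 and 0.20. With both libraries that stood apart left out, the calls were 9 of 13 and 35 of 48 in WT and 8 of 13 and 31 of 48 in KO, against 25.8% and 26.6% of all genes. Rps18 and Rpl35 both start inside such a tract, as printed above, yet Rps18 was among the largest changes and Rpl35 passed in neither genotype.

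With edgeR and all libraries, no ribosomal protein gene passed the threshold between KO and WT in either state, while other settings called a few. In M0, 0 of 81 members were called between KO and WT, where 9.78% of all genes were called, 5.5% higher and 4.27% lower in KO. DESeq2 called 1 member, Rpl7l1, lower, as did edgeR with upper-quartile factors or total counts only, and limma called Rpl37 and Rps15a lower at either pseudocount. With an unadjusted p below 0.05 there were 8 members, against 25.3% of all genes fitted. The median was -0.04, with 59 values below 0 and 22 above. The KO and WT libraries did not overlap for 13 members that were lower in KO (14.9% of all genes) and for 2 that were higher (16.2% of all genes), Rplp0 and Rpsa.

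Rpl7l1 had the smallest adjusted p. It had 158, 165 and 164 CPM in WT M0 and 148, 152 and 145 CPM in KO M0, and the groups did not overlap. Its log2 fold change was -0.13 ± 0.04 (edgeR adjusted p = 0.0829). In M2 the WT libraries had 174, 181 and 167 CPM and the KO libraries 177, 174 and 168 CPM, an overlap with a fitted value of -0.01 ± 0.04.

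Rpl35, picked for the lowest fitted value among the members in M0, had 210.5, 239 and 273 CPM in WT M0 and 196, 196 and 211 CPM in KO M0. The value was -0.26 ± 0.09 (edgeR adjusted p = 0.101), and the highest KO library reached the lowest WT library. Without WT M0 replicate 1 it was called lower (edgeR adjusted p = 0.0323), together with Rps16 and Rpl10a. These 3 of 81 members were near the 3.6% of all genes called lower in that fit. With none of the other M0 libraries left out was any member called. Rps16, Rpl37, Rpl39, Rpl27 and Rps7 also had unadjusted p below 0.05, all with lower values in KO M0.

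Rpsa, a small-subunit protein also known as the laminin receptor, had higher values in KO in both states. It had 1129, 1118 and 1176 CPM in WT M0 and 1231, 1221 and 1232 CPM in KO M0, and 1169, 1157 and 1159 CPM in WT M2 and 1374, 1242 and 1245 CPM in KO M2. The genotypes did not overlap in either state. The log2 fold changes were 0.11 ± 0.04 in M0 (edgeR adjusted p = 0.161) and 0.15 ± 0.04 in M2 (edgeR adjusted p = 0.0997), and DESeq2 called it in M2 (adjusted p = 0.0206).

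In M2, 0 of 81 members were called between genotypes with edgeR, where 2.68% of all genes were called, 1.21% higher and 1.46% lower, and DESeq2 called 1, Rpsa. There were 4 members with an unadjusted p below 0.05 (20.3% of all genes), Rpsa, Rplp1, Rpl36 and Rpl8, all with higher values in KO. The median was 0.04, with 60 values above 0 and 21 below. Rplp1 had 756, 707 and 702 CPM in WT M2 and 917, 754 and 808 CPM in KO M2. The lowest KO library fell within the WT range, and the value was 0.20 ± 0.07 (edgeR adjusted p = 0.129). All 3 KO libraries lay above all 3 WT libraries for 6 members (13.1% of all genes), Rpl13, Rpl8, Rpl9, Rps10, Rps13 and Rpsa, and below them for 0 (11.7% of all genes).

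The signs of both genotype medians depended on the libraries named above. Without WT M0 replicate 3 the median in M0 was 0.01, with 43 values above 0. Without KO M2 replicate 1 the median in M2 was -0.01, with 34 values above 0. With both left out, 4 of 81 members (4.94%), Rpl13, Rps10, Rps25 and Rpsa, were called higher in KO M0, where 8.81% of all genes were. The libraries then did not overlap for 21 members that were higher in KO M0 (25.4% of all genes) and 13 that were lower (23.4%), and in M2 for 6 higher (19.6%) and 7 lower (18.1%).

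Counts and TPM gave opposite signs between KO and WT in M0 for 8 of 81 members. Rpl27, a large-subunit protein, had 195, 195 and 221 CPM in WT M0, against 183, 182 and 188 CPM for the untreated KO cells. On the TPM scale it had 681, 664 and 705 TPM in WT and 750.5, 742 and 755 TPM in KO. Its effective length averaged 537 nt in WT M0 and 442 nt in KO M0, so fewer reads became a higher TPM. Rpl11 showed the same pattern, with 524 and 453 nt. For Rps15a the length went from 520.1 nt in WT M0 to 580.3 nt in KO M0, and limma on log2(TPM + 1) called it lower there while edgeR on counts did not (edgeR adjusted p = 0.314). Group mean effective lengths differed by over 10% for 4 members, the 3 named and Rpl39l.

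The genes that build ribosomes were described from lists chosen with earlier results of these data known. Among 93 fitted ribosome assembly factors, 33 were lower and 0 higher in KO M0, where 4.27% of all genes were called lower and 0 ribosomal protein genes were. The list's median was -0.15. The largest was Tsr1, a 40S maturation factor, with 112 ± 9.4 CPM in WT M0 and 85.9 ± 2.7 CPM in KO M0 (log2 fold change -0.39 ± 0.07, edgeR adjusted p = 0.00478). Dimt1, which methylates 18S rRNA, had -0.36 ± 0.08, and Tsr2, a chaperone of a small-subunit protein, had -0.35 ± 0.06. With limma the number lower was 19 at either pseudocount and 12 with no filter (1.11% of all genes). Over the fits without 1 library it ranged from 7 to 36. The 7 came without WT M0 replicate 2 (1.49% of all genes) and the 36 without WT M0 replicate 3 (4.89%). It was 13 without KO M0 replicate 1 (2.21%) and 17 without KO M0 replicate 2 (1.75%) or 3 (1.81%). The 8 proliferation genes of the marker lists moved in the same comparison. They summed to 2440.2 to 2669.6 TPM in WT M0 and 2198 to 2302 TPM in KO M0, and 7 of 8 had lower fitted values in KO M0, with 0 called. Their sums were also apart in M2, at 1459 to 1619.9 TPM in WT and 1294 to 1349 TPM in KO, where 1 was called lower. Their part in the assembly factor result was not tested.

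In M2 the assembly factors had 2 genes higher and 1 lower, where 1.21% and 1.46% of all genes were. With IL-4 they had 50 higher and 6 lower in WT and 71 higher and 3 lower in KO, with medians of 0.15 and 0.26, where 24.9% of all genes were higher and 25.1% lower in WT and 26.8% higher and 26% lower in KO. The number higher in WT was 27 with total counts only (17.5% of all genes) and 22 to 27 in the limma settings (10.7% of all genes with no filter). The test of the difference called 7 of them with a more positive response in KO and 0 the other way (1.11% and 2.13% of all genes). With the replicate block the count was 16, with DESeq2 13, with limma 2 at either pseudocount, and with limma and no filter 0 (0.155% of all genes). Nle1, a 60S assembly factor, had the largest difference (0.43 ± 0.09, edgeR adjusted p = 0.0189). Leaving out 1 library gave 1 to 9 such genes. There was 1 without WT M0 replicate 2, and there were 2 without KO M0 replicate 2 or 3. There were 3 without KO M0 replicate 1 or without KO M2 replicate 2 or 3. There were 4 without any 1 of the WT M2 libraries or without KO M2 replicate 1, and 9 without WT M0 replicate 1. The share of all genes called in that direction ran from 0.492% (without WT M0 replicate 2) to 1.51% (without WT M0 replicate 1).

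Among other parts of the translation machinery, the translation factors were mostly higher with IL-4. Of 48 translation factors, 36 were higher and 2 lower with IL-4 in WT and 37 higher and 0 lower in KO, with medians of 0.21 and 0.23. Over all genes 24.9% were higher and 25.1% lower in WT, and 26.8% higher and 26% lower in KO. In WT 21 were higher with total counts only (17.5% of all genes), and in KO 22 with limma and no filter (10.7% of all genes). Eif2b2, a subunit of the exchange factor for eIF2, had the largest rise, with 39.3 ± 3.6 CPM in WT M0 and 79.6 ± 2.5 CPM in WT M2. Between genotypes 1 was higher and 1 lower in M0 and 0 passed in M2. The 77 mitochondrial ribosomal protein genes, which belong to a separate ribosome, had 21 higher and 4 lower with IL-4 in WT, a number near the background, and 44 higher and 4 lower in KO. Their medians, 0.08 and 0.20, were similar to those of the cytosolic genes.

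The counts of the next 3 lists stand against 4.27% of all genes lower and 5.5% higher in KO M0, 1.21% higher and 1.46% lower in KO M2, 24.9% higher and 25.1% lower with IL-4 in WT, and 26.8% higher and 26% lower with IL-4 in KO. RNA polymerase I, which transcribes the ribosomal RNA precursor, had 13 fitted subunits and factors. In KO M0 2 were lower, Polr1b (-0.35 ± 0.08, edgeR adjusted p = 0.0154) and Rrn3 (-0.17 ± 0.04, edgeR adjusted p = 0.0304). With IL-4, 2 were higher in WT and 7 in KO. These small counts moved with single libraries. In KO M0 the number lower was 0 without WT M0 replicate 2 or KO M0 replicate 3 and 1 without KO M0 replicate 1 or 2. In WT the number higher was 0 without WT M0 replicate 2 and 1 without WT M2 replicate 2, and in KO it was 4 without KO M2 replicate 2. Of 14 fitted snoRNA host genes, 4 were lower in KO M0, among them Zfas1 and Gas5, and Gas5, whose RNA carries its own TOP tract, had 134 ± 5.9 CPM in WT M0 and 95.8 ± 5.4 CPM in KO M0 (-0.49 ± 0.06, edgeR adjusted p = 0.000765). The number of host genes lower in KO M0 was 2 without WT M0 replicate 2. With IL-4, 5 were higher and 2 lower in WT and 7 higher and 1 lower in KO, and 3 were higher in WT without WT M0 replicate 1 or WT M2 replicate 1. Of 37 regulators of TOP mRNAs and mTORC1, 1 was higher in KO in each state, and with IL-4 13 were higher and 5 lower in WT and 12 higher and 6 lower in KO. Of the genes with other names, Rack1, a scaffold protein on the small subunit, was higher with IL-4 in both genotypes, and Rpl36al was higher in KO.

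**Figure D5:**
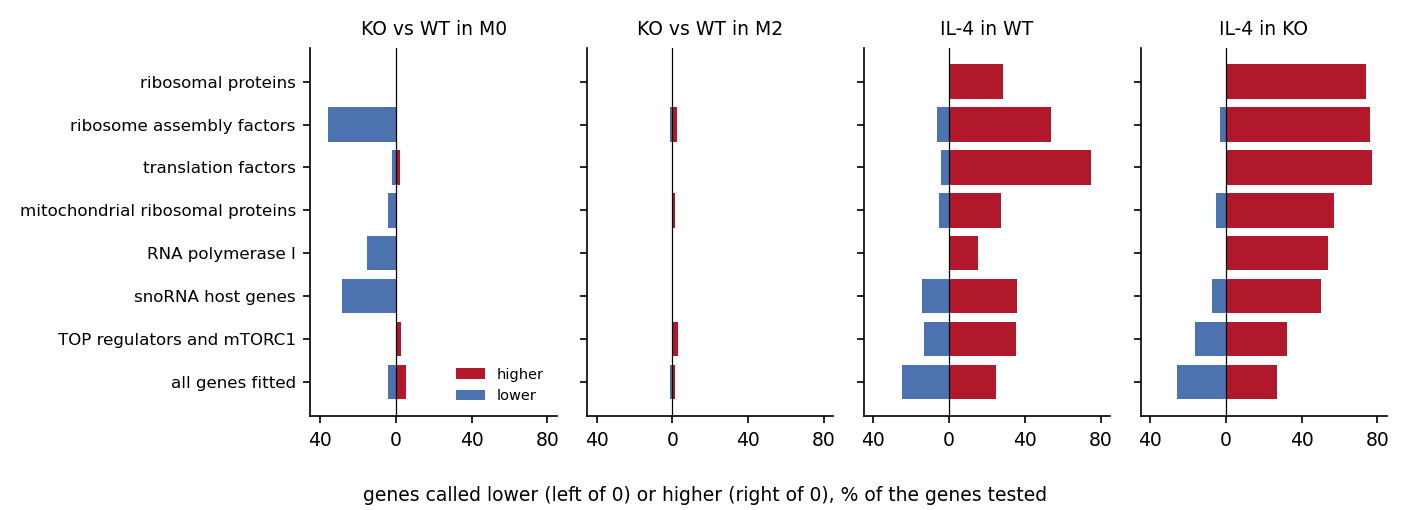
Genes called higher (right of 0) or lower (left of 0) by edgeR, as % of the genes tested, for the ribosomal protein genes, 6 related lists and all genes fitted, in 4 comparisons. In KO M0 the ribosomal protein genes have no bar while 33 of 93 ribosome assembly factors are lower, and with IL-4 the bars of the ribosomal protein genes extend only to the right.

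The cells carried the macrophage markers of the list at a summed 3876 to 4391 TPM in WT M0 and 4030.2 to 4149 TPM in KO M0. Of the 8 markers, 1 was called between genotypes in M0. Itgam was higher in KO M0, with 927 ± 24.4 CPM in WT M0 and 1265 ± 63.7 CPM in KO M0 (edgeR adjusted p = 0.00396). The 6 IL-4 activation genes were called higher in both genotypes. Neutrophil markers summed to 19.8 to 49.7 TPM in WT M0 and 15.5 to 16.8 TPM in KO M0, and 2 of the 3 fitted, Ltf and S100a9, were lower in KO M0. All 5 fitted stromal markers had lower values in KO in both states, with 0 called by edgeR and medians of -0.72 in M0 and -1.21 in M2, and they summed to 11.1 to 21.8 TPM in untreated WT cells against 3.53 to 12.9 TPM in untreated KO cells. With IL-4 the sums were apart, at 12.5 to 22.9 TPM in WT against 3.25 to 10.95 TPM in KO. All 8 proliferation genes fell with IL-4 in both genotypes. The part of these markers in the results above was not tested.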

How the data were processed

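RNA with a RIN above 9 was poly(A)-selected and sequenced as single 75-nt reads. Per the labels and the study's methods, the authors checked reads with FastQC 0.11.2, ran Grape-nf 1.1.3 under Nextflow 20.10.0 on GRCm38/mm10 and tested with DESeq2 1.40.2. The quantifier and annotation release are not given in the sources used here. The deposited library tables give expected counts and TPM per gene, as the authors estimated them. The deposited comparison tables were used for gene names, a text field, and their fold changes and p-values were not used.

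Expected counts were rounded to whole numbers and fitted over all 12 libraries with edgeR 4.0.16 (R 4.3.3): filterByExpr, TMM factors, a quasi-likelihood test with 1 coefficient per group, and Benjamini-Hochberg adjustment over 12846 genes, with calls at an adjusted p below 0.05. The 5 comparisons were KO against WT in M0 and M2, M2 against M0 in each genotype, and the difference of the latter. CPM used TMM-scaled library sizes. Total expected counts were 20011792 to 39632770 per library. Alternatives used other scalings and filters, limma 3.58.1 on log2(TPM + 1) or log2(TPM + 0.1), DESeq2 1.42.0, a replicate block, and each library left out. The fit was tested on simulated data, in which genes varied independently and the changes were larger than those of most members. That test does not cover the members' small changes or their shared shifts between libraries. No pair of libraries had identical counts. The study states 3 mice per group.

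Members and lists were chosen with earlier results of these data known. Named members were, by rule, the 5 called members with the largest rise and fall in each comparison, the 5 highest and lowest by TPM in WT M0, the P-stalk genes, and copy genes with their partners. Rpl35, Rpl27, Rpl11, Rps15a, Rps16, Rps20, Rps28 and Rpsa, and other genes named in counts, were added after their values were seen. M0 and M2 libraries of the same number deviated together (r from 0.21 to 0.51 over 10655 genes for the 6 pairs), so the numbers were taken to pair them. Promoter windows are RefSeq's, and positions follow GRCm38. Some results are not reported here.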

Additional observations from a re-analysis of the deposited data

Results flagged for a closer look

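Reads assigned to named pseudogenes of the members lie outside the comparisons above and were above 0 in every library. The 238 named pseudogenes summed to a mean of 819.7 TPM per library, from 675 TPM in WT M2 replicate 1 to 1122 TPM in WT M0 replicate 3. Rpl31-ps8 alone had a mean of 446 TPM, next to a mean of 656 TPM for Rpl31 in WT M0, and 57 of the 238 had 0 in every library. Whether these reads came from the pseudogenes or from the parent genes was not tested.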

How the results depend on the processing

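Among alternatives other than leaving out a single library, 31 values for the main counts, medians and shares moved and 129 did not. The M0 genotype count of 0 became 1 with upper-quartile factors, 1 with total counts only and 1 with DESeq2 (Rpl7l1, lower), and 2 with limma on log2(TPM + 1) or log2(TPM + 0.1) (Rpl37 and Rps15a, lower). The M2 count of 0 became 1 with DESeq2. The IL-4 count in WT was 6 with upper-quartile factors, 6 with total counts only and 14 with no count filter. It was 15 with limma at either pseudocount and 10 with limma and no filter. Of all genes, 17.5% were higher and 33.3% lower with total counts only, and 10.7% and 16% with limma and no filter. The median member was 0.019 with total counts only, 0.048 with limma at either pseudocount and 0.047 with limma and no filter. The IL-4 count in KO was 35 with total counts only (21.2% of all genes higher) and 24 with limma and no filter (10.7%). Its median was 0.12 in the 3 limma settings. WT M0 replicate 3 and KO M2 replicate 1 were also both left out, chosen after seeing that the members were high in them. The M0 count was then 4 (15.3% of all genes) and the IL-4 count in WT was 57 (50.6% of all genes). The median difference was -0.030. The share of TPM was 10.6% in WT M0, 10.4% in KO M0 and 10.9% in WT M2 from the posterior mean TPM. Of expected counts the members held 3.89, 3.76, 3.96 and 4.12% in WT M0, KO M0, WT M2 and KO M2. The cause of these changes was not tested. Leaving out 1 library gave M0 counts of 0 to 3 and IL-4 counts of 9 to 44 in WT and 38 to 72 in KO. It gave 0 calls in M2 and for the difference. The shares of all genes called ran from 3.54 to 11.2% in M0 and from 0.192 to 2.27% in M2. They were 42.7 to 47.3% with IL-4 in WT, 46 to 48.6% in KO and 1.41 to 4.95% for the difference. With the replicate number as a block, which pairs M0 and M2 libraries of 1 genotype, 30 members were called with IL-4 in WT (29 higher and 1, Rps20, lower) and 68 in KO, and the other counts stayed at 0. Of the calls, 8 in WT and 37 in KO were made in every fit without 1 library. Counts were too few to describe a change in Rpl3l, Rpl10l and Rpl39l.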
